A study of Mus musculus with 12 samples.

Results

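The mitochondrial genome of the mouse encodes the 37 genes described here. They are the rows of the deposited table whose name begins with mt-: 13 protein genes, 2 ribosomal RNA (rRNA) genes and 22 transfer RNA (tRNA) genes out of 56980 genes listed. They were followed in 12 libraries of polyadenylated RNA from the lungs of male C57BL/6 mice, aged 6 to 8 weeks. The 4 Control libraries came from mice given distilled water, as the control to bleomycin. The 4 Model libraries came from mice given bleomycin, which damages the lung and is used to produce fibrosis, as a single instillation of 5 mg/kg into the trachea, and distilled water. The 4 HBG libraries (titled HSBD, with library names HBG) came from mice given the same bleomycin plus 7 g/kg of HBG by mouth, the herbal mixture Huashibaidu in granule form. The labels conflict on the timing of the granules. The series text has them begin a week ahead of bleomycin and go on until day 28, while the sample labels have them begin on day 7 and run for 14 days. Whether each library stems from its own animal is not stated in the labels, and a p-value here therefore covers only library-to-library spread, some of which may be technical.

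The mitochondrial genome is a small circle that is read from both strands as long precursor RNAs, which are cut mainly at the tRNAs lying between the other genes. Its proteins are core subunits of respiratory complexes I, III and IV and of ATP synthase, and its rRNAs form the core of the mitochondrial ribosome. The remaining subunits are encoded in the nucleus. Most mitochondrial mRNAs carry short poly(A) tails, which is how they enter a library of polyadenylated RNA, whereas mature tRNAs do not. In the lung, type II alveolar cells and ciliated airway cells are rich in mitochondria.

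Pieces of mitochondrial DNA also lie in nuclear chromosomes, and the counts of several members turned on a run of such copies on chromosome 1. The GENCODE M21 transcripts (build GRCm38) were therefore searched for sequences with at least 90% identity to a mitochondrial gene over at least 100 bases. There were 17 annotated copies. The 7 with a mean above 100 estimated counts all lay on chromosome 1, and the other 10 had means under 10, with 4 of them at 0 in every library. The starts of the mt-Co2 gene (chrM:7013-7696, plus strand), of its copy Gm28661 on chromosome 1 (chr1:24614885-24615565, minus strand) and of its copy Gm13341 on chromosome 2 (chr2:22587291-22587962, minus strand) are shown because they carry the finding: bases 1 to 60, 5′ to 3′, with the bases that differ from mt-Co2 in capitals.
mt-Co2: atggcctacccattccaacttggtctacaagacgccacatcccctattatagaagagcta
Gm28661: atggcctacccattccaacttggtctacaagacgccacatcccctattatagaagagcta
Gm13341: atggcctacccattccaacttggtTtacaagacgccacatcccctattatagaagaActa
Gm28661 matched mt-Co2 at 100% of 681 bases, out of the 684 bases of the gene. Gm13341 matched it at 95.9%, and in the window above it carries the substitutions C25T and G57A (positions counted from base 1 of the mitochondrial gene, mitochondrial base first).

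Other copies of the chromosome 1 run differ from the mitochondrial gene at a single base or at none. The starts of mt-Nd3 (chrM:9459-9806) and of Gm28438 (chr1:24612775-24613119, minus strand) show the only mismatch in their 345 aligned bases, T3C, in capitals.
mt-Nd3: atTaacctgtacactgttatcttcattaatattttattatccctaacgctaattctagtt
Gm28438: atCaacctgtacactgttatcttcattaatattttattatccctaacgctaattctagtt
Of mt-Co1 (chrM:5328-6872), the chromosome 1 copy Gm29216 (chr1:24615706-24616197, minus strand) covers only the last 483 bases, with the mismatch A1066T. The chromosome 2 copy Gm13340 (chr2:22588103-22589647, minus strand) covers all 1545 bases at 97.6% identity and has T1072C in the window shown, which spans bases 1063 to 1122. Capitals mark these mismatched bases.
mt-Co1: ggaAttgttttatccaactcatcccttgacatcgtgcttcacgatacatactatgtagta
Gm29216: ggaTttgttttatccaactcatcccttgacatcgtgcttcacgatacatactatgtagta
Gm13340: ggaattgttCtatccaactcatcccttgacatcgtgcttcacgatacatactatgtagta
Gm28437 (mt-Co3, 783 bases), Gm10925 (mt-Atp6, 678 bases), Gm10222 (mt-Nd4l, 294 bases) and Gm28439 (mt-Nd4, 876 bases) matched at 100%. The sequences are GENCODE M21 transcripts. The authors' annotation is not given in the sources available here, although the deposited lengths of all 37 members equal those of GENCODE M21.

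The deposited counts of 5 protein genes lay mostly on the nuclear row. mt-Co2 kept 2.7, 2.64, 1.78 and 2.29% of the counts of its own row and its copies together in Control 1 to 4, 1.84, 1.17, 0.85 and 1.21% in Model 1 to 4 and 1.56, 1.51, 1.43 and 3.11% in HBG 1 to 4. mt-Co3 kept 9.66, 6.92, 6.41 and 5.42% of the joint counts in Control 1 to 4, 5.5, 3.5, 9.48 and 8.61% in Model 1 to 4 and 7.52, 3.76, 4.79 and 5.85% in HBG 1 to 4. mt-Atp6 kept 5.34, 9.11, 3.88 and 6.99% of the joint counts in Control 1 to 4, 8.15, 9.4, 6.09 and 12.9% in Model 1 to 4 and 6.7, 5.37, 5.32 and 9.3% in HBG 1 to 4. The share kept thus varied by more than 2-fold between libraries for each of these 3 genes, while the nuclear rows held nearly all of the counts. mt-Nd4l kept 9.63, 10.9, 9.08 and 9.11% of the joint counts in Control 1 to 4, 13.2, 11.7, 13.5 and 14.8% in Model 1 to 4 and 11.6, 8.05, 5.49 and 8.81% in HBG 1 to 4. mt-Nd3 kept 16.8, 15.1, 18.2 and 16.6% of the joint counts in Control 1 to 4, 18.5, 12.3, 19.6 and 11.9% in Model 1 to 4 and 27.6, 16, 11 and 12.4% in HBG 1 to 4. These are the genes whose chromosome 1 copy spans almost the whole gene. The copy of mt-Nd4 is identical over 876 of 1378 bases, yet mt-Nd4 kept 99.0% in Model 4 and 100% in the other libraries, and mt-Co1 kept between 99.1 and 100%. Reads that lie wholly within identical stretches cannot be told apart by sequence, so which of the counts on the nuclear rows came from mitochondrial RNA was not tested. The counts of a mitochondrial row and its copies were therefore also summed, a choice made after these values were seen.

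**Figure D1:**
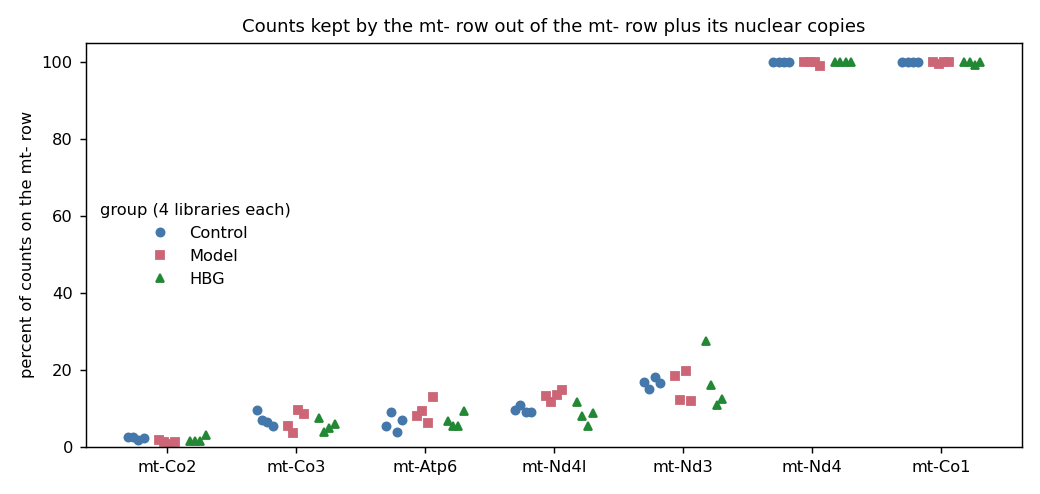
Percent of the joint counts of a mitochondrial gene and its nuclear copies that lie on the mt- row (vertical axis), for the 7 protein genes with a copy of over 100 counts on average (horizontal axis). Each point is a library, 4 per group. mt-Co2 stays between 0.85 and 3.11%, whereas mt-Co1 and mt-Nd4 stay between 99.0 and 100%.

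By class, the protein genes made up nearly all of the mitochondrial share of a library. The 13 protein gene rows took 4.58, 5.99, 5.75 and 4.73% of the estimated counts in Control 1 to 4, 4.49, 3.15, 5.58 and 6.53% in Model 1 to 4 and 5.32, 3.76, 2.6 and 4.95% in HBG 1 to 4. The group means were 5.26 ± 0.712% in Control, 4.94 ± 1.46% in Model and 4.16 ± 1.23% in HBG (SD, n = 4 each), or 0.938 times Control in Model, 0.790 times Control in HBG and 0.842 times Model in HBG. The groups overlapped in all 3 comparisons: Model held both the highest library of the 12 (Model 4) and the second lowest (Model 2), and HBG 3 was the lowest. In RNA of a whole tissue, fewer cells of a type and less RNA per cell cannot be told apart.

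The nuclear copies took a further 1.75, 2.33, 2.4 and 1.82% in Control, 1.77, 1.18, 2.08 and 1.97% in Model and 1.92, 1.49, 1.03 and 1.81% in HBG, in the order of the libraries. With them the 13 protein genes took 6.33, 8.32, 8.16 and 6.55% in Control, 6.26, 4.33, 7.67 and 8.49% in Model and 7.24, 5.25, 3.63 and 6.75% in HBG, with means of 7.34 ± 1.04% in Control, 6.69 ± 1.82% in Model and 5.72 ± 1.63% in HBG. The groups still overlapped. Without Model 2 and HBG 3, left out after their values were seen, the means of the 13 rows alone were 5.53% in Model and 4.68% in HBG.

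The 2 rRNA genes, although rRNA is the bulk of mitochondrial RNA in a cell, took little of these poly(A)-selected libraries. Their joint share was 0.0957, 0.125, 0.128 and 0.125% in Control, 0.0847, 0.0693, 0.143 and 0.0949% in Model and 0.0949, 0.0896, 0.0688 and 0.112% in HBG, with means of 0.119 ± 0.0153% in Control, 0.098 ± 0.0319% in Model and 0.0912 ± 0.0176% in HBG. Control 1 lay below the other 3 Control libraries, and Model 3 was the highest of all. Per 100 counts of the protein genes with copies there were 1.62 ± 0.193 rRNA counts in Control, 1.49 ± 0.322 in Model and 1.64 ± 0.244 in HBG, and the libraries of the groups overlapped.

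**Figure D2:**
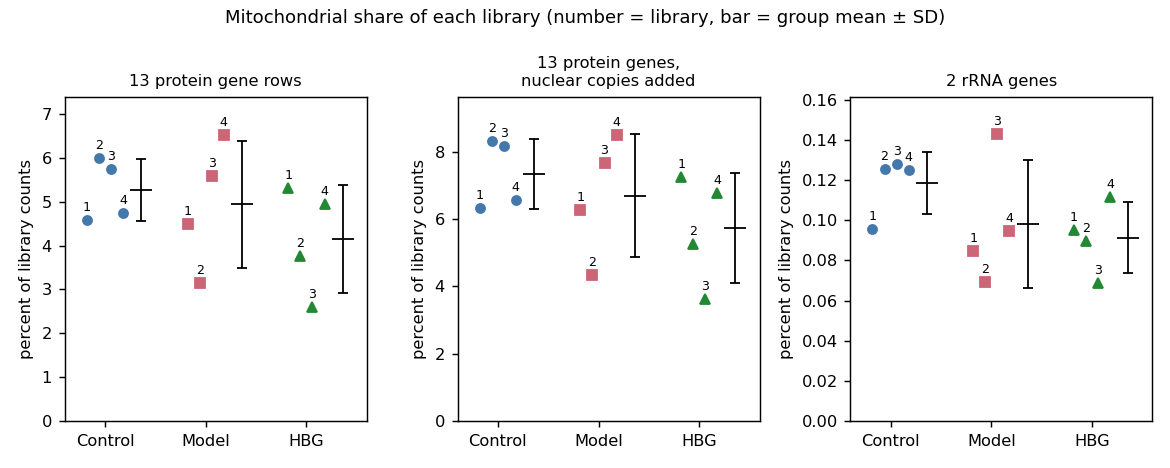
Percent of each library's estimated counts (vertical axes, from 0) on the 13 protein gene rows, on the same genes with nuclear copies added, and on the 2 rRNA genes, by group. Points are libraries with their replicate number, and the black bar is the group mean ± SD. Model 2 and HBG 3 are the lowest of their groups in each panel, and the groups overlap in each.

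Lung, heart and blood markers differed between libraries too, and so did the nuclear genes of mitochondrial proteins. Total counts ranged from 17979908 to 27150874. Type II alveolar markers summed to between 17970 and 30890 CPM (counts scaled to the library total), with Sftpc the most abundant of them on average, and no marker list had a gene at 0 in all libraries. The 18 cardiac muscle markers summed to between 937 and 6215 CPM over the Control libraries, between 378 and 3576 CPM over Model and between 382 and 3982 CPM over HBG, with 1450 in Model 2 and 382 in HBG 3. The highest sum of each group was in Control 2, Model 4 and HBG 1, which were also the libraries with the highest share of the 13 protein genes in their groups. The lowest cardiac sum of each group was in Control 1, Model 3 and HBG 3. Control 1 and HBG 3 also had the lowest protein gene share of their groups. Model 3 did not, at 5.58% against 3.15% in Model 2. Ciliated cell markers were likewise highest in Control 2, Model 4 and HBG 1 (2102, 1960 and 2324 CPM). They were lowest of their groups in Control 1 (1664), Model 2 (1181) and HBG 3 (865), the libraries with the lowest protein gene share of each group. Type II alveolar markers did not follow that order. Their sums were highest of each group in Control 1 (30710 CPM), Model 1 (30890) and HBG 4 (26910). Control 1 had the lowest protein gene share of its group. The lowest type II sums were in Control 4 (22960), Model 4 (22790) and HBG 1 (17970). Model 4 and HBG 1 had the highest protein gene share of their groups. Model 2 and HBG 3 had the lowest sums of club cell markers (26770 and 26440 CPM, against 36910 to 76270 in the others) and of nuclear complex I genes (1343 and 1321 CPM, against 1652 to 2301). They also had the highest sums of lymphocyte (278 and 366 CPM, against 23.2 to 165) and endothelial markers (5139 and 5456 CPM, against 1728 to 4329). Erythrocyte markers were highest in Model 2 and HBG 3 too (5799 and 4624 CPM, against 316 to 4604 in the others). Within Control they summed to 4397, 1745, 1547 and 4604 CPM in Control 1 to 4. The part of these values in the mitochondrial shares was not tested.

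Levels per length ranked the members. With copies added and as a mean of the 12 libraries, mt-Co1, a catalytic subunit of complex IV (cytochrome c oxidase), was first at 13780 CPM per kilobase, followed by mt-Co2 at 9816, mt-Co3 at 8085 and mt-Atp6 at 7086. On the mitochondrial row alone, mt-Co2 stood at 183 CPM per kilobase and fell from rank 2 to rank 14 of 15, and mt-Co3 and mt-Atp6 stood at 541 and 529, at ranks 9 and 10. Next came mt-Cytb at 6026, mt-Nd4 at 4242, mt-Nd1 at 4201 and mt-Nd2 at 3550 CPM per kilobase with copies. The neighbours mt-Co3 and mt-Atp6, and mt-Nd4 and mt-Nd1, lay closer to each other in each group's mean than 1 SD of the first of the pair in that group. The lower end held mt-Atp8 (2463), mt-Nd5 (2096), mt-Nd3 (1809), mt-Nd4l (1652) and mt-Nd6 (1498), but the order of these 5 differed between groups. mt-Atp8 stood above mt-Nd5 in Control, at 3698 ± 1497 against 2253 ± 283 CPM per kilobase, and below it in Model, at 2113 ± 733 against 2265 ± 662, and in HBG, at 1576 ± 159 against 1769 ± 432. The rRNA genes mt-Rnr2 (440) and mt-Rnr1 (346 CPM per kilobase) were last in these libraries.

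**Figure D3:**
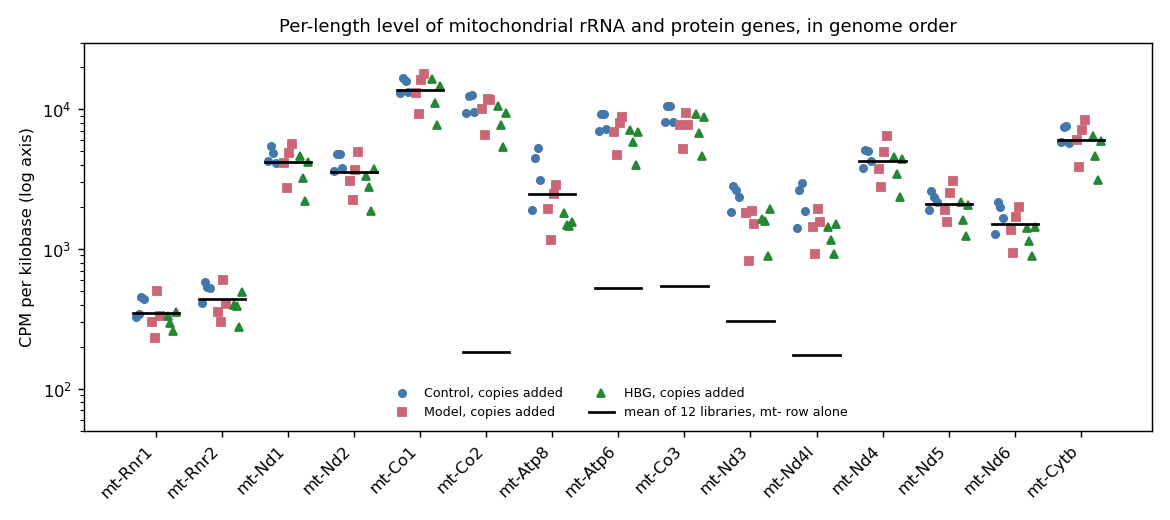
CPM per kilobase of gene length (vertical axis, logarithmic) of the 2 rRNA and 13 protein genes in genome order. Points are the 4 libraries of each group with nuclear copies added, and black bars are the means of the 12 libraries for the mt- row alone, which fall far below the points for mt-Co2, mt-Atp6, mt-Co3, mt-Nd3 and mt-Nd4l only.

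In the comparison of Model with Control, which asks what differed in the lung after bleomycin, 0 of the 15 mitochondrial genes with enough counts to be tested passed edgeR's quasi-likelihood test with Benjamini-Hochberg adjustment at 0.05. Over all 17827 genes tested, 62 passed (0.348%). At an unadjusted p under 0.05 the test counted 2 of the 15 members (mt-Co2 and mt-Atp8) and 11.7% of all genes, and neither DESeq2 nor limma-voom called a member. Estimated log2 fold changes were below 0 for 14 of 15 members, with a median of -0.21, against 48.5% below 0 and a median of 0.01 over all genes, but without Model 2 only 7 of 15 were below 0, with a median of 0.01. The same count was 9 of 15 with limma-voom or with a correction for GC content and length, and 14 of 15 under RLE or upper-quartile scaling. The comparison with HBG shares these Control libraries, so its values below are not a separate repeat.

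For HBG against Control, the joint contrast of bleomycin and granules with neither, 0 of 15 members passed by edgeR, where 27 genes passed in all (0.151%), and 4 of 15 had an unadjusted p under 0.05 against 8.25% of all genes. All 15 had log2 fold changes below 0, with a median of -0.46 against 0.01 over all genes. They stayed below 0 in each of the other fits and with each library left out, with medians between -0.68 and -0.33. With copies added the median was -0.47, and 6 of 15 members had an unadjusted p under 0.05 by edgeR. DESeq2 called 1 member, mt-Atp8, among 205 genes (1.15%). For HBG against Model, the comparison that addresses the granules, edgeR called 0 genes of 17827 (0%), DESeq2 called 4 and limma-voom 0, and none of them was a member. Of all genes, 2.43% had an unadjusted p under 0.05 there, and of the members only mt-Nd4l did. The log2 fold changes of 13 of 15 members were below 0, against 49.9% of all genes, with a median of -0.33 against 0.00 over all genes. With each library left out, the median lay between -0.50 (without Model 2) and -0.16 (without HBG 3). Between 11 of 15 (without Model 3) and 14 of 15 members were then below 0.

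**Figure D4:**
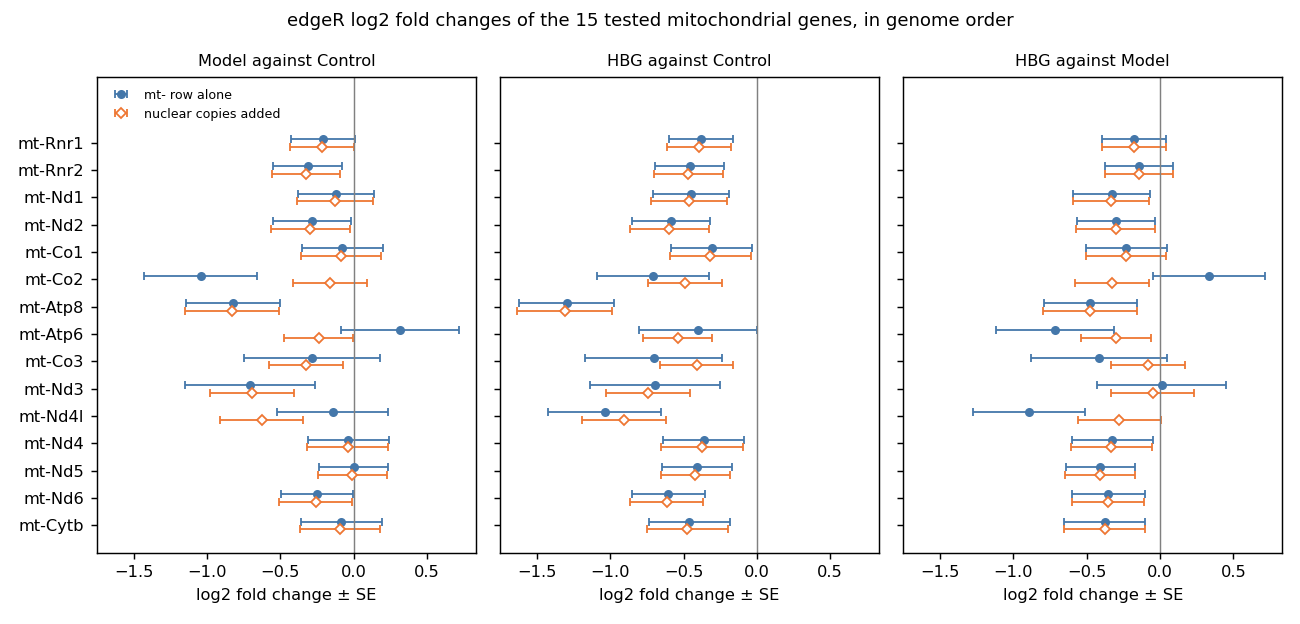
Log2 fold change ± SE (horizontal axes) of the 15 tested mitochondrial genes from edgeR, for each comparison, on the mt- row alone and with nuclear copies added. For Model against Control and for HBG against Model, adding the copies shifts mt-Co2, mt-Atp6 and mt-Nd4l the most. Their error bars are shorter with copies, and no member passed the adjusted threshold in either form.

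Complex I, the entry point of electrons from NADH, draws 7 of its subunits from this genome. mt-Nd1 took 0.411, 0.519, 0.466 and 0.398% of the library in Control 1 to 4, 0.396, 0.263, 0.464 and 0.538% in Model 1 to 4 and 0.442, 0.311, 0.211 and 0.405% in HBG 1 to 4. mt-Nd2 took 0.374, 0.496, 0.493 and 0.392% of the library in Control 1 to 4, 0.317, 0.232, 0.383 and 0.517% in Model 1 to 4 and 0.348, 0.289, 0.194 and 0.386% in HBG 1 to 4. Both encode membrane subunits of the proton-pumping arm, and in both Model 2 and HBG 3 were lowest and the groups overlapped. The log2 fold change of mt-Nd2 was -0.29 ± 0.27 for Model against Control and -0.59 ± 0.27 for HBG against Control (edgeR adjusted p = 0.602). mt-Nd4 took 0.523, 0.708, 0.693 and 0.586% of the library in Control 1 to 4, 0.518, 0.382, 0.684 and 0.877% in Model 1 to 4 and 0.624, 0.474, 0.323 and 0.613% in HBG 1 to 4. mt-Nd5 took 0.349, 0.471, 0.428 and 0.396% of the library in Control 1 to 4, 0.35, 0.286, 0.458 and 0.56% in Model 1 to 4 and 0.396, 0.294, 0.225 and 0.376% in HBG 1 to 4. These larger antiporter-like subunits had the values nearest to 0 for Model against Control, with -0.04 ± 0.28 for mt-Nd4 and -0.0013 ± 0.24 for mt-Nd5. For HBG against Model they were -0.33 ± 0.28 and -0.41 ± 0.24.

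mt-Nd6 is the single protein gene on the other strand, where its end overlaps that of mt-Nd5. mt-Nd6 took 0.0664, 0.112, 0.103 and 0.0869% of the library in Control 1 to 4, 0.0707, 0.049, 0.0886 and 0.103% in Model 1 to 4 and 0.073, 0.0593, 0.0464 and 0.074% in HBG 1 to 4. Per 100 counts of mt-Nd5 there were 22.2 ± 2.33 in Control, 18.8 ± 1.32 in Model and 19.7 ± 0.938 in HBG, with Control 1 (19.0) inside the range of both other groups. The library kit marks strand, but whether the counting used strand is not stated in the labels, so reads of mt-Nd6 and of RNA from the opposite strand may be mixed.

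mt-Nd3 and mt-Nd4l encode the smallest complex I subunits of this genome. mt-Nd3 alone took 0.0108, 0.0149, 0.0167 and 0.0135% of the library in Control 1 to 4, 0.0116, 0.0035, 0.0129 and 0.0063% in Model 1 to 4 and 0.0157, 0.00879, 0.00341 and 0.00836% in HBG 1 to 4. With Gm28438, mt-Nd3 took 0.064, 0.0986, 0.0914 and 0.0814% in Control 1 to 4, 0.063, 0.0286, 0.0657 and 0.0527% in Model 1 to 4 and 0.0567, 0.0549, 0.031 and 0.0673% in HBG 1 to 4. The sums put Control 1 (0.0640%) within the range of both other groups, so the groups overlapped. The edgeR log2 fold change of the sum was -0.69 ± 0.29 for Model against Control (adjusted p = 0.383) and -0.74 ± 0.29 for HBG against Control (adjusted p = 0.531), and -0.05 ± 0.29 for HBG against Model. mt-Nd4l alone took 0.00407, 0.00865, 0.00805 and 0.00502% of the library in Control 1 to 4, 0.00567, 0.00319, 0.00778 and 0.0069% in Model 1 to 4 and 0.00495, 0.00276, 0.0015 and 0.00395% in HBG 1 to 4. With Gm10222, mt-Nd4l took 0.0422, 0.0792, 0.0887 and 0.0551% in Control 1 to 4, 0.043, 0.0274, 0.0575 and 0.0466% in Model 1 to 4 and 0.0428, 0.0343, 0.0273 and 0.0449% in HBG 1 to 4. For mt-Nd4l the row and the sum gave different sizes. The row had -0.14 ± 0.38 for Model against Control and -0.90 ± 0.38 for HBG against Model, while the sum had -0.63 ± 0.28 and -0.28 ± 0.28. For HBG against Control both were low, at -1.04 ± 0.38 and -0.91 ± 0.28 (edgeR adjusted p = 0.525 and 0.41).

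Complex III, which passes electrons to cytochrome c, has cytochrome b as its only mitochondrial subunit. mt-Cytb took 0.666, 0.858, 0.875 and 0.656% of the library in Control 1 to 4, 0.686, 0.444, 0.818 and 0.952% in Model 1 to 4 and 0.742, 0.533, 0.356 and 0.684% in HBG 1 to 4. The group means were 0.764 ± 0.119% in Control, 0.725 ± 0.217% in Model and 0.579 ± 0.173% in HBG, and the groups overlapped. Its log2 fold changes were -0.09 ± 0.28 for Model against Control, -0.46 ± 0.28 for HBG against Control and -0.38 ± 0.28 for HBG against Model.

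Complex IV, which reduces oxygen, takes its 3 core subunits from this genome. mt-Co1 took 2.03, 2.57, 2.47 and 2.05% of the library in Control 1 to 4, 2.01, 1.41, 2.51 and 2.77% in Model 1 to 4 and 2.54, 1.71, 1.18 and 2.26% in HBG 1 to 4. That made mt-Co1 the most abundant member in each library, with between 30.3 and 35.1% of the counts of the 13 protein genes with copies. Its log2 fold changes were -0.08 ± 0.28 for Model against Control, -0.31 ± 0.28 for HBG against Control and -0.23 ± 0.28 for HBG against Model. mt-Co2 alone took 0.0175, 0.0226, 0.0155 and 0.0151% of the library in Control 1 to 4, 0.0127, 0.00524, 0.00686 and 0.0097% in Model 1 to 4 and 0.0113, 0.00805, 0.00525 and 0.0202% in HBG 1 to 4. On this row the 4 Model libraries (0.00524 to 0.0127%) lay below the 4 Control libraries (0.0151 to 0.0226%), and mt-Co2 was the 1 member of 15 whose Model and Control libraries did not overlap, against 8.85% of all genes tested. The row's log2 fold change was -1.04 ± 0.38 (edgeR adjusted p = 0.324). With its copies, mt-Co2 took 0.649, 0.857, 0.872 and 0.659% in Control 1 to 4, 0.688, 0.448, 0.807 and 0.804% in Model 1 to 4 and 0.726, 0.532, 0.367 and 0.648% in HBG 1 to 4. The sums overlapped, with a log2 fold change of -0.16 ± 0.25 for Model against Control, so the gap on the row was not present in the sum. For HBG against Model the sign turned from 0.33 ± 0.38 on the row to -0.33 ± 0.25 in the sum.

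For mt-Co3, the third core subunit of complex IV, the row and the sum had the same sign in each comparison. mt-Co3 alone took 0.0612, 0.0572, 0.0535 and 0.0343% of the library in Control 1 to 4, 0.0334, 0.0143, 0.0703 and 0.0523% in Model 1 to 4 and 0.0549, 0.0199, 0.0174 and 0.0406% in HBG 1 to 4. Together with Gm28437, mt-Co3 took 0.633, 0.827, 0.834 and 0.633% in Control 1 to 4, 0.608, 0.408, 0.742 and 0.607% in Model 1 to 4 and 0.73, 0.528, 0.363 and 0.694% in HBG 1 to 4. The log2 fold change of the sum was -0.33 ± 0.25 for Model against Control, -0.41 ± 0.25 for HBG against Control and -0.08 ± 0.25 for HBG against Model, with overlapping groups. Model 4 stood out in the sum. It had the highest level of the Model group for mt-Co1, mt-Nd4 and mt-Cytb, but its mt-Co3 made up only 7.15% of the 13 protein genes, against 9.41 to 10.3% in the other 11 libraries.

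ATP synthase, which makes ATP from the proton gradient, has 2 subunits from this genome, both in its membrane part. mt-Atp6 alone took 0.0256, 0.0576, 0.0247 and 0.0347% of the library in Control 1 to 4, 0.0381, 0.0299, 0.0331 and 0.0772% in Model 1 to 4 and 0.0322, 0.0214, 0.0145 and 0.0436% in HBG 1 to 4. Joined with Gm10925, mt-Atp6 took 0.48, 0.632, 0.635 and 0.496% in Control 1 to 4, 0.467, 0.318, 0.543 and 0.598% in Model 1 to 4 and 0.481, 0.399, 0.272 and 0.469% in HBG 1 to 4. The row alone had a log2 fold change of 0.32 ± 0.40 for Model against Control and the sum -0.24 ± 0.24, with opposite signs. For HBG against Control the sum had -0.54 ± 0.24 (edgeR adjusted p = 0.591).

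mt-Atp8 gave the lowest adjusted p of the members for HBG against Control. It is the shortest protein gene of this genome (204 bases, chrM:7766-7969, plus strand), and it is shown whole because its last 43 bases, in capitals, are also the start of mt-Atp6 in another reading frame, so reads there could come from either gene.
mt-Atp8: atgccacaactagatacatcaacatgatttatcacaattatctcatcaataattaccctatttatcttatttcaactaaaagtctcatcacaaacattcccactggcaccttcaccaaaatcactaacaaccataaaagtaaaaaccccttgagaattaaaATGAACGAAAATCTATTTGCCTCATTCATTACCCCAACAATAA
mt-Atp8 took 0.0388, 0.0911, 0.108 and 0.0636% of the library in Control 1 to 4, 0.0396, 0.0238, 0.0508 and 0.0582% in Model 1 to 4 and 0.0368, 0.0303, 0.0297 and 0.0318% in HBG 1 to 4. All 4 HBG libraries lay below all 4 Control libraries, while Model overlapped both. Control itself was uneven, with Control 1 at 0.0388% and Control 3 at 0.108%. mt-Atp8 was the 1 member of 15 whose HBG and Control libraries did not overlap, against 6.7% of all genes, and for HBG against Model there was none, against 1.3%. The log2 fold change for HBG against Control was -1.30 ± 0.32 with an adjusted p of 0.228 by edgeR, and DESeq2 gave -1.29 ± 0.32 with an adjusted p of 0.00897. For Model against Control it was -0.82 ± 0.32 (edgeR adjusted p = 0.356) and for HBG against Model -0.48 ± 0.32. The call for HBG against Control thus depended on the tool. No tRNA gene lies between mt-Atp8 and mt-Atp6, so both may be on the same RNA. The copy Gm10925 matches mt-Atp6 from base 1 on, so the 43 shared bases are part of that copy too. For mt-Atp8 itself no annotated copy met the search limits, and its counts with copies added are those of its row. Copies outside the annotated transcripts were not searched for. With its copies, mt-Atp6 had -0.24 ± 0.24 for Model against Control and -0.54 ± 0.24 for HBG against Control. Whether mt-Atp8 changed apart from mt-Atp6 was not tested.

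The rRNA genes were tested on their own rows, since no annotated nuclear copy of them met the search limits. mt-Rnr1 took 0.0311, 0.0329, 0.0432 and 0.0416% of the library in Control 1 to 4, 0.0285, 0.0219, 0.0475 and 0.0315% in Model 1 to 4 and 0.0319, 0.0283, 0.0249 and 0.0337% in HBG 1 to 4. mt-Rnr2 took 0.0645, 0.0925, 0.085 and 0.0836% of the library in Control 1 to 4, 0.0562, 0.0475, 0.0956 and 0.0634% in Model 1 to 4 and 0.063, 0.0613, 0.044 and 0.0779% in HBG 1 to 4. These RNAs of the small and large ribosomal subunit kept a ratio (mt-Rnr2 over mt-Rnr1) of 2.21 ± 0.4 in Control, 2.04 ± 0.0889 in Model and 2.06 ± 0.237 in HBG. For HBG against Control the log2 fold change was -0.38 ± 0.22 for mt-Rnr1 and -0.46 ± 0.23 for mt-Rnr2, and the libraries overlapped.

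The 22 tRNA genes were close to absent from these poly(A)-selected libraries and none had enough counts to be tested. Their counts summed to 15, 17, 16 and 11 in Control 1 to 4, 6, 5, 11 and 13 in Model 1 to 4 and 10, 3, 0 and 3 in HBG 1 to 4. A count of 0 in HBG 3 allows up to 3 counts, or 0.145 CPM, for counting error only. The summed level was 0.694 ± 0.14 CPM in Control, 0.428 ± 0.183 CPM in Model and 0.206 ± 0.206 CPM in HBG, and the HBG libraries (0 to 0.491 CPM) lay below the Control libraries (0.558 to 0.833 CPM), with Model overlapping both. These are few counts, and poly(A) selection removes most mature tRNA, so no fold is given for a single gene. Only 12 of the 22 had any count. mt-Ts1, for serine, had 46 counts in 11 libraries and mt-Tn, for asparagine, 30 counts in 10 libraries, and the other 10 detected genes had between 1 and 10 counts in all. The remaining 10 were at 0 in every library. mt-Ts1 adjoins mt-Co1 on the other strand, so its counts may include reads of that neighbour.

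The lower values were not spread evenly over the protein genes. With copies added, the 3 shortest genes, mt-Atp8, mt-Nd4l and mt-Nd3, had log2 fold changes of -0.83 ± 0.32, -0.63 ± 0.28 and -0.69 ± 0.29 for Model against Control. The 3 longest, mt-Nd5, mt-Co1 and mt-Nd4, had -0.01 ± 0.24, -0.09 ± 0.27 and -0.04 ± 0.28. The short mt-Nd4l overlaps the long mt-Nd4, and mt-Atp8 overlaps mt-Atp6 (-0.24 ± 0.24), with no tRNA gene between them. The genes of such a pair may therefore be parts of the same RNA. Over the 13 protein genes, Spearman's correlation of fold change with gene length was 0.885 for Model against Control and 0.863 for HBG against Control, which share the Control libraries, and -0.132 for HBG against Model. With GC content it was 0.313, 0.418 and 0.286. These are descriptions across genes, which share their libraries and are not independent replicates, and the pattern was noticed after the values were seen.

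Among other tested genes the medians followed the same order of length. Over the 57 other tested genes of at most 350 bases (nuclear copies among them), the median log2 fold change for Model against Control was -0.41, and it was -0.14 for 701 genes of 351 to 700 bases, -0.12 for 1231 genes of 701 to 1100 bases, -0.05 for 3919 genes of 1101 to 2000 bases and 0.04 for 11904 longer genes. For HBG against Control the medians were -0.48, -0.20, -0.13, -0.06 and 0.04, and for HBG against Model they lay between -0.04 and 0.03. Within the mitochondrial genome, the 3 shortest genes with copies summed to 41.6, 57.1, 67.4 and 50.5 counts per 100 of mt-Nd5 in Control 1 to 4, 41.6, 27.9, 38 and 28.2 in Model 1 to 4 and 34.5, 40.6, 39.2 and 38.3 in HBG 1 to 4. Control 1 fell at the level of Model 1, and the other Control libraries lay above all others. Corrected for GC content and length in the fit, the median of the 15 members was -0.08 for Model against Control, -0.34 for HBG against Control and -0.35 for HBG against Model. Of the short genes on their own rows, with the correction mt-Atp8 went from -0.82 to -0.74, mt-Nd3 from -0.71 to -0.64 and mt-Nd4l from -0.14 to -0.09 for Model against Control. For HBG against Control they went from -1.30 to -1.38, from -0.70 to -0.68 and from -1.04 to -1.13 in that order. What lies behind the relation with length was not tested.

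**Figure D5:**
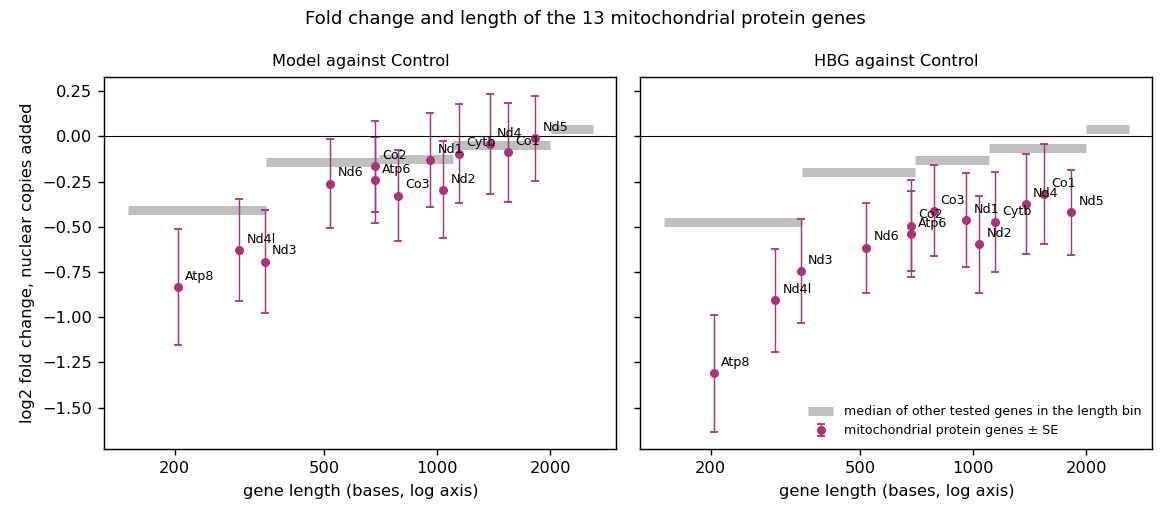
Log2 fold change ± SE with nuclear copies added (vertical axis) against gene length in bases (horizontal axis, logarithmic) for the 13 mitochondrial protein genes, for Model and HBG each against the same Control libraries. Grey bars are the medians of the other tested genes in each length range. mt-Atp8, mt-Nd4l and mt-Nd3 are lowest in both panels, where the grey bar for genes of up to 350 bases is lowest too.

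Nuclear genes for the same complexes had lower estimates in Model than in Control, with few calls. For HBG against Control most estimates were below 0 too, against 49.0% of all genes, with none of these complex genes called. There all 36 complex I, 9 complex III and 14 complex IV genes were below 0 (medians -0.21, -0.31 and -0.41). So were 3 of 4 complex II and 14 of 15 ATP synthase genes. The values that follow are for Model against Control. Of 36 nuclear complex I genes, 2 passed edgeR's test as lower in Model than in Control and 0 as higher, against 0.348% of all genes called in either direction. All 36 had log2 fold changes below 0 (median -0.30), against 48.5% of all genes, and against 65.6% of the tested genes of 351 to 700 bases. Ndufb2, an accessory subunit, was at 20.3 ± 0.735 CPM in Control and 10.7 ± 1.08 CPM in Model (log2 fold change -0.93, edgeR adjusted p = 0.0116). Ndufab1, the mitochondrial acyl carrier protein, was at 58.8 ± 6.44 and 31.1 ± 5.54 CPM (-0.93, edgeR adjusted p = 0.049). In complex IV, 1 of 14 passed as lower and all 14 were below 0 (median -0.43). It was Cox5b, a nuclear subunit, at 88.8 ± 19.4 CPM in Control and 35.5 ± 4.95 CPM in Model (-1.33, edgeR adjusted p = 0.0294). None of the 4 complex II, 9 complex III or 15 ATP synthase genes passed, with medians of -0.19, -0.29 and -0.28, against 0.01 over all genes tested. These calls were not all stable. Over 25 alternatives of the edgeR fit or tool the adjusted p reached 0.128 for Ndufb2, 0.192 for Ndufab1 and 0.111 for Cox5b. Ndufb2 missed the threshold without Control 3 and with the GC and length correction. Ndufab1 missed it with that correction, with upper-quartile factors, and without any single library other than HBG 3, and Cox5b without Control 2, without Control 3 or without any single Model library.

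Of 78 genes of the mitochondrial ribosome, 2 passed as lower in Model, against 0.348% of all genes called (median of the list -0.13, against 0.01 over all genes). Mrps34 had 24.4 ± 1.63 CPM in Control and 12.8 ± 1.48 CPM in Model, with an adjusted p of 0.0062 by edgeR. Mrps24 had 21.7 ± 1.67 and 8.85 ± 1.8 CPM, with an adjusted p of 0.00671 by edgeR. Both belong to the small subunit, and both calls held with each library left out. Mrps34 also passed for HBG against Control, at 13.7 ± 1.87 CPM in HBG (edgeR adjusted p = 0.0126), as the only gene of these lists to do so, though without HBG 2 or without HBG 4 it did not pass (adjusted p of at most 0.105 by any alternative of the edgeR fit). Among 22 genes of mitochondrial DNA transcription and replication, 28 of RNA processing, 18 biogenesis regulators and 16 of mitophagy and dynamics, 0 passed in any comparison, and the list medians lay between -0.11 and 0.04. For HBG against Model, 0 genes of any of these lists passed. There the medians of the nuclear complex lists lay between 0.05 and 0.14, while the median of the 15 mitochondrial genes was -0.33. Whether the mitochondrial and nuclear genes differ in this comparison was not tested.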

How the data were processed

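Polyadenylated lung RNA was sequenced as paired reads of 150 bases from a stranded kit, per the labels' protocols. The table deposited by the authors holds estimated counts per gene, a unit read from the values: 10.0 to 15.1% of the values of a library, and 46.2 to 61.5% of the 13 mitochondrial protein rows, were not whole. The submitters' processing notes name, with no roles, the aligners HISAT2 and STAR 2.7.9a, the counters HTSeq and featureCounts 2.0.1, DESeq2 1.34.0, 4 tools for read quality or trimming (FastQC 0.11.9, fastp, cutadapt, Trimmomatic 0.39) and the builds GRCm39 and mm10. The tool that made the counts and its strand setting are not given in the sources used here.

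Shares are percent of a library's total. Counts were rounded and tested with edgeR 4.0.16 in R 4.3.3 (TMM factors, filterByExpr, quasi-likelihood F test, group as the only term, all 12 libraries, two-sided, Benjamini-Hochberg over 17827 genes, threshold 0.05). SEs were derived from the F statistic. DESeq2 1.42.0, limma-voom (limma 3.58.1), other scalings and filters, the replicate block, a GC and length correction and each library left out were alternatives. Summing nuclear copies (BLAST 2.17.0 on GENCODE M21) and leaving out Model 2 and HBG 3 were added after seeing the data. Same-numbered libraries correlated between -0.357 and 0.481, with 3 of 12 pairs over 0.1, so numbers were not taken as pairs. In simulated counts for Model against Control (17827 genes), 43 of 100 2-fold and 83 of 100 4-fold changes were recovered, with 6 other genes called.

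The members and gene lists were chosen with earlier results of these data known. All 13 protein and both rRNA genes are given in full, tRNA genes by range and count, and from nuclear lists at most the 2 genes of smallest p among those called.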

Additional observations from a re-analysis of the deposited data

Results flagged for a closer look

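Of 111 sets of 4 libraries, 8 had a library far from the other 3 by Dixon's criterion. For separate sets chance gives about 1 in 20, but these sets share libraries and counts. The flags on mt-Co1 and on Gm29216 rest largely on the same counts, as do those on mt-Nd4 and on Gm28439. The rRNA share of Control 1 was 0.0957%, against 0.125 to 0.128% in Control 2 to 4. mt-Co1 kept 99.5% of its joint counts in Model 2, against 99.96 to 100% in the rest of Model, and 99.1% in HBG 3, against 99.97 to 99.99%. The corresponding share of its copy Gm29216 was 0.00662% of the library in Model 2 and 0.0107% in HBG 3, which are also the libraries with the lowest mitochondrial shares of their groups. In the other 10 libraries Gm29216 lay under 0.001%. mt-Co2 kept 3.11% of its joint counts in HBG 4, against 1.43 to 1.56% in HBG 1 to 3. mt-Nd4 kept 98.96% in Model 4, where its copy Gm28439 took 0.00926% of the library (1828 estimated counts), against 0 in the other 11 libraries.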

How the results depend on the processing

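Over all genes, edgeR's 62 calls for Model against Control became 444 with DESeq2, 1079 with limma-voom and 23 to 100 with a library left out. The 27 for HBG against Control became 205, 101 and 16 to 53, and 45 without Model 2 and HBG 3 together. The 0 for HBG against Model became 4 with DESeq2. The replicate block gave 25 calls for Model against Control (26 with GC and length correction as well), 17 for HBG against Control (14 with it) and 0 for HBG against Model. The labels do not state whether replicate numbers mark pairs or batches, and they were not taken as pairs here. No mitochondrial gene was called under the block. mt-Atp8 for HBG against Control was the 1 mitochondrial call of any alternative, by DESeq2. Of the nuclear calls, Ndufb2, Ndufab1, Cox5b, Mrps24 and Mrps34 were lost in 4, 15, 8, 1 and 1 of 25 alternatives for Model against Control, and Mrps34 in 3 of 25 for HBG against Control. The block lost Ndufb2, Ndufab1, Cox5b and Mrps24 (adjusted p = 0.0504 by edgeR for the last).

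Shares rested on the denominator and the copies: the protein gene mean of Control was 6.05% without the 20 most abundant other genes in the total, and with copies 7.34% in Control, 6.69% in Model and 5.72% in HBG. The rRNA mean of Control became 0.136% without those 20 genes.

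Of 375 alternative log2 fold changes per comparison, 38 changed sign for Model against Control, 11 for HBG against Model and 0 for HBG against Control. The cause was not tested. With copies added, mt-Atp6 turned to -0.24 for Model against Control, and mt-Co2 to -0.33 and mt-Nd3 to -0.052 for HBG against Model. For Model against Control, limma-voom gave 0.016 for mt-Co1, 0.015 for mt-Nd4, 0.12 for mt-Nd4l, 0.061 for mt-Nd5 and 0.0255 for mt-Rnr1. The GC and length correction gave 0.026 for mt-Co1, 0.0535 for mt-Cytb, 0.0345 for mt-Nd1, 0.11 for mt-Nd4 and 0.092 for mt-Nd5, and together with the block 0.013 for mt-Cytb, 0.057 for mt-Nd4 and 0.057 for mt-Nd5. Without Model 2 and HBG 3 the values were 0.071 for mt-Co1, 0.079 for mt-Cytb, 0.0365 for mt-Nd1, 0.12 for mt-Nd4, 0.049 for mt-Nd4l and 0.13 for mt-Nd5. Without a filter mt-Nd5 was at 0.0147, and with the 2 groups alone at 0.0042. For HBG against Model, mt-Nd3 was -0.34 with limma-voom, -0.041 with GC and length correction and -0.011 with the block added.

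With each library left out, Model against Control ranged from -0.0798 to 0.65 for mt-Atp6, -0.21 to 0.087 for mt-Co1, -0.65 to 0.0066 for mt-Co3, -0.24 to 0.095 for mt-Cytb, -0.26 to 0.052 for mt-Nd1, -0.25 to 0.14 for mt-Nd4, -0.32 to 0.0675 for mt-Nd4l and -0.18 to 0.15 for mt-Nd5. The signs of mt-Co1, mt-Co3, mt-Cytb, mt-Nd1, mt-Nd4, mt-Nd4l and mt-Nd5 changed without Model 2, those of mt-Nd4, mt-Nd4l and mt-Nd5 without Control 2, those of mt-Cytb, mt-Nd4 and mt-Nd5 without Control 3, those of mt-Nd4 and mt-Nd5 without Model 1, and that of mt-Atp6 without Model 4. HBG against Model ranged from -0.15 to 0.59 for mt-Co2, -0.37 to 0.28 for mt-Nd3, -0.33 to 0.078 for mt-Rnr1 and -0.30 to 0.10 for mt-Rnr2, changing sign without HBG 4 for mt-Co2, without Model 2, Model 4 or HBG 1 for mt-Nd3, and without Model 3 for both rRNA genes. The tRNA genes together had at most 17 counts in a library, and the effect of depth on the other members was not tested.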
